A study of Mus musculus with 24 samples.

Results

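The genes of the m6A writer complex, Mettl3, Mettl14, Mettl16, Wtap, Virma, Rbm15, Rbm15b, Zc3h13 and Cbll1, were examined for m6A peaks in their own mRNAs in mouse kidney. A peak was taken when it overlapped an exon of one of these 9 genes on the same strand in the GRCm38 annotation, which holds 21951 protein-coding genes. Peaks of different kidneys that overlapped on the same strand were joined into a locus, and 31 of the 16815 loci lay in writer genes.

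The kidneys came from male C57BL/6 mice aged 8 weeks in 3 groups of 4. Control mice received vehicle, mice of the injury group (IG) received cisplatin at 20 mg/kg after vehicle, and mice of the treatment group (TG) received the same cisplatin after 14 daily doses of 20 mg/kg berberine. Cisplatin is a platinum drug that damages the renal tubule, berberine is a plant alkaloid, and kidneys were taken 72 h after cisplatin. No group received berberine without cisplatin. MeRIP-seq, in which an antibody against m6A pulls down mRNA fragments that are then sequenced, gave 1 peak list per kidney. Each peak carried a score, which is -10 times the log10 of its p-value, and scores reach down to 13.0, which stands for a p-value of 0.05. The lists held 8531 to 9579 peaks in controls, 6745 to 8357 in IG and 5901 to 6753 in TG, so every control list was longer than every IG and TG list, and IG and TG lengths overlapped slightly. Read depth and RNA level are not in the lists, and both can move a score. A kidney without a listed peak was therefore below the calling limit or outside the kept exons, which is not a measurement of absent methylation. In whole kidney, fewer cells of a type and less RNA per cell cannot be told apart.

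m6A is placed on mRNA mostly by a heterodimer of METTL3, which carries the catalytic site, and METTL14, which helps to bind the RNA. WTAP anchors this pair to a regulatory complex with VIRMA, the scaffold, ZC3H13, CBLL1 (also called HAKAI) and the RNA-binding adaptors RBM15 and RBM15B. METTL16 acts alone, on U6 snRNA and on the mRNA of the SAM synthetase gene MAT2A. The heterodimer prefers the motif RRACH, in which R is either purine and H is any base but guanine, so that adenine and cytosine stand between a pair of purines and a base other than guanine. GGACT is the form met most often.

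The 5 sequences that follow show exonic sequence of the writer genes from GRCm38, written 5′ to 3′ on the strand of the gene with each RRACH match in capitals. Exon numbers refer to the transcript with the longest coding sequence. The first 2 belong to the strongest loci of Zc3h13. Exon 15 of Zc3h13 is shown because it is rich in the motif and no kidney listed a peak there, Rbm15 exon 1 because its rank was lower in TG than in controls, and Wtap exon 5 as the strongest locus of that gene. All 5 stretches are coding. Exons over 300 bases are shown by the 240 bases of coding sequence with the most motif matches.
Zc3h13 exon 12, part, chr14:75327544-75327783, plus strand: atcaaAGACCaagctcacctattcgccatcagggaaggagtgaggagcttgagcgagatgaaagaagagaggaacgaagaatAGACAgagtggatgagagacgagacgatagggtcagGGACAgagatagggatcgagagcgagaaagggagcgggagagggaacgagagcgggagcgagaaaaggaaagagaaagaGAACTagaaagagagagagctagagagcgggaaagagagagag
Zc3h13 exon 14, part, chr14:75330264-75330503, plus strand: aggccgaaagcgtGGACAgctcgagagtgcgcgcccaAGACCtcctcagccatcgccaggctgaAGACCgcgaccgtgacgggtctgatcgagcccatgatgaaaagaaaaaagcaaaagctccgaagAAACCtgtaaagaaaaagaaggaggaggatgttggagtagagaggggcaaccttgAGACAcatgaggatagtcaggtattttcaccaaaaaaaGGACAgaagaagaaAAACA
Zc3h13 exon 15, part, chr14:75331898-75332137, plus strand: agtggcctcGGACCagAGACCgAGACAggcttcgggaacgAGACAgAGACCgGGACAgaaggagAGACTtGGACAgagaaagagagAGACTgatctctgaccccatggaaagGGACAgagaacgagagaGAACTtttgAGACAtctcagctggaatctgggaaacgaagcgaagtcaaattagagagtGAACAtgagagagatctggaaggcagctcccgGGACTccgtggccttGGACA
Rbm15 exon 1, part, chr3:107331346-107331585, minus strand: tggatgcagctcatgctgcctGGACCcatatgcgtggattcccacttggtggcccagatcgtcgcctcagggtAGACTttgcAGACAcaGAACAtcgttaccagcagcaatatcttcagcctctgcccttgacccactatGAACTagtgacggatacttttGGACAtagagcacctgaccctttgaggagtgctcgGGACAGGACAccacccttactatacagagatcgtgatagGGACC
Wtap exon 5, whole, chr17:12980822-12980949, minus strand: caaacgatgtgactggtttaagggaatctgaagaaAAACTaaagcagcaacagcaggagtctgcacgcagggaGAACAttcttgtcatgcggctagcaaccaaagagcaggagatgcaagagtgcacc

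Of the 9 writer genes, 7 had a listed peak in any kidney. Wtap, Virma, Rbm15, Rbm15b, Zc3h13 and Cbll1 had one in every kidney, Mettl14 had one in 11 kidneys, and Mettl3 and Mettl16 had none. Over all protein-coding genes, 35.4% had a peak in any kidney and 8.60% in all 12. At the level of loci, 11 of the 31 were listed in all 12 kidneys, 12 in 2 to 11 kidneys and 8 in 1 kidney, and the corresponding shares over all loci were 14.4% for all 12 kidneys and 23.1% for 1 kidney. The recurrent loci were distributed over Zc3h13, with 7, and Virma, Rbm15, Rbm15b and Cbll1, with 1 each. Most writer loci coincided with annotation, since 24 of the 31 spanned exactly 1 exon and 24 lay wholly within coding sequence. Over all lists 64.5% of peaks had the borders of an annotated exon, so the borders of a locus do not locate a methylated base within the exon.

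**Figure D1:**
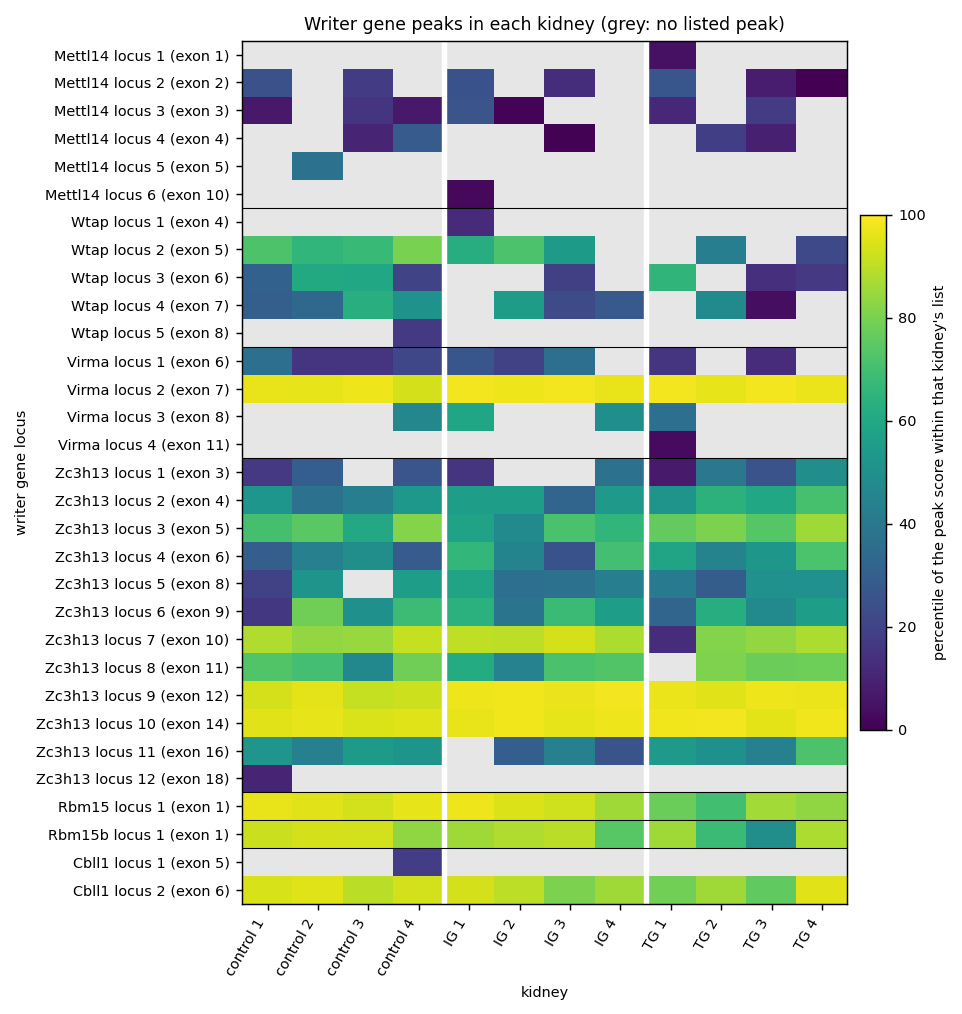
Rank of each writer gene peak within the list of its kidney, as a percentile in which 100 is the highest score, for 31 loci (lines, grouped by gene) and 12 kidneys (columns, grouped as control, IG and TG). Grey cells hold no listed peak. Virma exon 7 and Zc3h13 exons 12 and 14 were near the top of every list, whereas the Mettl14 loci were sparse and low, and Mettl3 and Mettl16 have no line because no peak was listed.

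Mettl3, the catalytic subunit, had 0 peaks in 12 kidneys, also when peaks on either strand across the whole gene (chr14:52294841-52305128) were counted. Its coding sequence of 1740 nt holds 26 RRACH matches, 3 of them GGACT. Mettl16 (chr11:74770830-74828525) likewise had 0 peaks on either strand, with 19 matches and 2 GGACT in 1779 nt. The density of the motif in these 2 coding sequences was 14.9 and 10.7 matches per kb, and in the 7 writer genes with peaks it was from 14.9 (Cbll1) to 24.4 per kb (Wtap).

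Mettl14, the partner of Mettl3 (chr3:123368297-123386108, minus strand), had 6 loci, none of them in more than 7 kidneys and none above a score of 46.7. Its peaks numbered 2.00 ± 0.816 per kidney (SD, n = 4) in controls, 1.5 ± 1.29 in IG and 2.00 ± 1.15 in TG. IG kidney 4 had none. Exon 2 of 11 (89 bases) was listed in 2 control, 2 IG and 3 TG kidneys with scores from 13.0 to 30.0. Exon 3 was listed in 3, 2 and 2 kidneys with scores from 13.4 to 30.7. Exon 4 was listed in 2, 1 and 2 kidneys with scores from 13.2 to 34.7. The other loci, in exons 1, 5 and 10, were each listed in 1 kidney. The locus at exon 10, of 567 bases, held the 211 bases of that exon and sequence beyond it. The highest score of the gene, 46.7, came from exon 5 in control kidney 2 alone. Mettl14 peaks therefore lay close to the calling limit in all groups.

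Wtap, the anchor of the regulatory complex (chr17:12966796-12994169, minus strand), was listed in every kidney, but with no locus common to all. It had 3.25 ± 0.5 peaks per kidney (SD, n = 4) in controls, 2.00 ± 0.816 in IG and 1.75 ± 0.5 in TG. In exon 5 of 8 the scores of control kidneys 1 to 4 were 182, 136, 145 and 300. IG kidneys 1 to 3 had scores of 120, 182 and 81.0 at this exon, and IG kidney 4 had no peak. TG kidneys 2 and 4 had scores of 53.5 and 27.5, and TG kidneys 1 and 3 had no peak. The 2 listed TG scores were below all control and IG scores at this exon. Its score was not tested, because only loci listed in all 8 kidneys of a comparison were. Exon 7 of Wtap was listed in 4 control, 3 IG and 2 TG kidneys with scores from 14.6 to 120. The locus at exon 6 (chr17:12974160-12975474) covered the 179 bases of that exon and sequence beyond it, and in 4 of the 6 annotated transcripts that hold it this is the last exon. All controls listed it (scores 36.4, 107, 102 and 25.8), as did IG kidney 3 (23.1) and TG kidneys 1, 3 and 4 (123, 19.9 and 23.0). A single kidney each listed exon 4 (IG kidney 1) and exon 8 (control kidney 4).

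Virma, the scaffold (chr4:11485958-11550684, plus strand), carried the strongest locus of all writer genes, with a mean score of 1998 over 12 kidneys in exon 7 of 25. Its scores in control kidneys 1 to 4 were 1379, 1318, 1713 and 945. In IG they were 3073, 2200, 2643 and 1855, and in TG 2590, 1483, 2640 and 2133. Every IG score was above every control score. The within-list percentile of this exon had its lowest value, 93.7, in control kidney 4. The neighbouring exon 6 was listed in 4, 3 and 2 kidneys of control, IG and TG with scores from 19.4 to 43.7. Exon 8, of 1141 bases and with 22 RRACH matches, was listed in 1, 2 and 1 kidneys with scores from 42.2 to 105. Exon 11 was listed in TG kidney 1 only (14.1), and the other 21 exons had no listed peak, among them exons of 545 and 1140 bases.

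Rbm15 and Rbm15b encode the adaptors that bind RNA, and each had 1 locus, listed in all 12 kidneys. The Rbm15 locus (chr3:107329697-107333101, minus strand) covers 2866 coding bases of exon 1 of 2. With 3405 bases in all, it also holds sequence beyond the end of that exon in the transcript used. Its scores were 1385, 1072, 781 and 1398 in control kidneys 1 to 4. In IG they were 2226, 1235, 849 and 438, and in TG 229, 158, 402 and 387. All 4 TG scores were below all 8 scores of the other groups, and the IG scores spanned the control scores. The Rbm15b locus (chr9:106883985-106887000, minus strand) lies in the only exon of the gene and holds both the start and the stop codon. Its scores were 688, 843, 796 and 379 in controls, 450, 558, 589 and 203 in IG and 396, 145, 64.5 and 568 in TG. These groups overlapped.

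Cbll1, an E3 ubiquitin ligase of the complex, had its recurrent locus in the last of 6 exons, over the stop codon (chr12:31486743-31488314, minus strand). Scores were 911, 1036, 535 and 889 in controls. IG kidneys scored 1013, 665, 282 and 438, and TG kidneys 243, 406, 206 and 1470, where kidney 4 had the highest score of all 12 kidneys and the other three were below every control. A second locus, in exon 5, was listed in control kidney 4 alone (23.9).

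Zc3h13, a zinc finger protein that helps to hold the complex in the nucleus (chr14:75284373-75344426, plus strand), had the most peaks of the writer genes. They numbered 10.8 ± 1.26 per kidney (SD, n = 4) in controls, 10.3 ± 0.5 in IG and 10.8 ± 0.5 in TG, on 12 of its 19 exons. Over all protein-coding genes, 52 had at least 12 loci, Zc3h13 included. Exons 4, 5, 6, 9, 10, 12 and 14 were listed in all 12 kidneys, exons 8, 11 and 16 in 11, exon 3 in 9 and exon 18 in 1. Exons 1, 2, 7, 13, 15, 17 and 19, which include both ends of the transcript, had no listed peak. The strongest were exon 14, with a mean score of 1795, and exon 12, with 1685. In exon 12 (chr14:75327544-75328144) the scores of control kidneys 1 to 4 were 863, 1172, 640 and 779. In IG they were 2356, 2639, 1876 and 2902, and in TG 1724, 1288, 1974 and 2012. All 8 scores after cisplatin were above all 4 control scores. In exon 14 (chr14:75330069-75331259) the scores of controls were 1182, 1364, 908 and 1199, with 1775, 2563, 1654 and 2176 in IG and 2103, 2668, 1353 and 2597 in TG. Here the IG scores were again all above the control scores, and TG kidney 3 lay within the control range. Exon 16 went the other way. Its scores were 57.2 to 86.1 in controls, 34.4, 54.3 and 29.55 in IG kidneys 2 to 4, and 52.05 to 186 in TG, and IG kidney 1 had no listed peak.

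The weaker recurrent exons of Zc3h13 varied more between kidneys of a group. Exon 5 (chr14:75305789-75305897) had scores of 172, 203, 107 and 330 in controls. In IG they were 99.6, 65.4, 170 and 134, and in TG 210, 272, 184 and 458, so that TG and IG did not overlap and controls overlapped both. Exon 10 had scores of 469, 337, 364 and 702 in controls, 684, 679, 955 and 512 in IG, and 291, 331 and 560 in TG kidneys 2 to 4, with 19.3 in TG kidney 1. That kidney also lacked the peak of exon 11, which all 11 other kidneys listed with scores from 58.3 to 276. Exon 4 had scores of 80.3, 46.3, 54.6 and 86.9 in controls, 92.5, 91.5, 36.6 and 83.6 in IG, and 71.9, 124, 97.7 and 176 in TG. Exon 6 had scores of 35.4, 57.9, 70.1 and 34.3 in controls, 146, 59.5, 28.4 and 165 in IG, and 92.65, 57.1, 73.4 and 182 in TG. Exon 9 had scores of 21.9, 248, 72.8 and 166 in controls, 130.6, 47.2, 145 and 90.04 in IG, and 36.8, 113, 61.7 and 92.01 in TG. The groups overlapped at these 3 exons in every comparison.

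**Figure D2:**
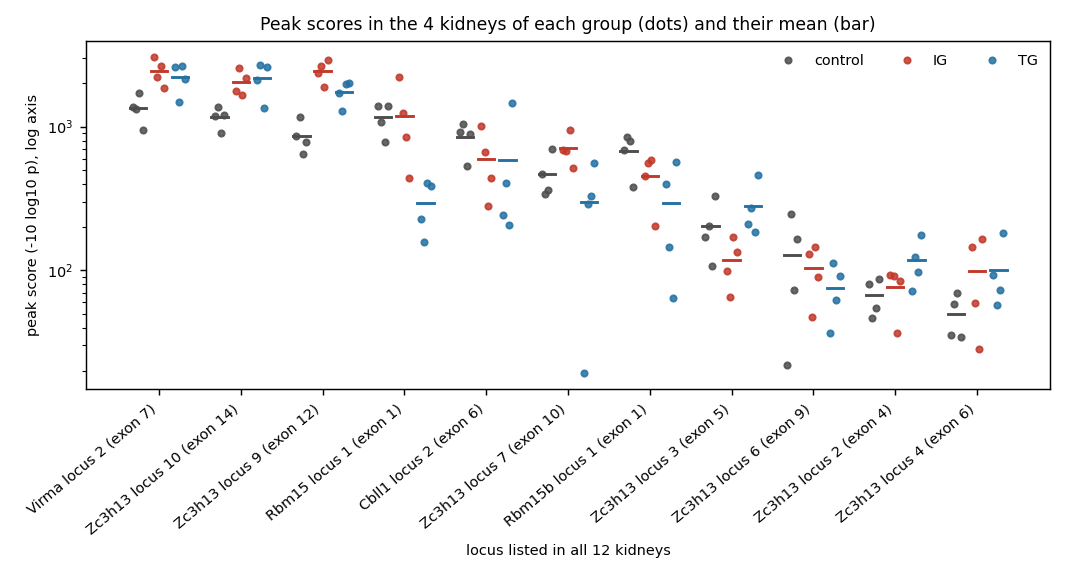
Peak scores on a log axis at the 11 writer loci listed in all 12 kidneys, ordered by mean score, with 1 dot per kidney and a bar at the mean of the 4 kidneys of control (grey), IG (red) and TG (blue). At Zc3h13 exon 12 all IG and TG dots lie above the control dots, at Rbm15 exon 1 all TG dots lie below the others, and 1 TG dot at Zc3h13 exon 10, with a score of 19.3, lies far under the rest.

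The overall density of the motif in the writer loci was close to that in all loci, with 16.6 RRACH matches per kb against 16.1, and 0.971 GGACT per kb against 1.15. Matches were counted on the gene's strand, each overlapping match included. The strongest Zc3h13 loci were nonetheless poor in the motif. Zc3h13 exons 12 and 14 hold 11.6 and 11.8 matches per kb, and neither holds GGACT. In contrast, exon 15 of Zc3h13, of 513 bases and next to exon 14, holds 21 matches (40.9 per kb) and had no listed peak in any kidney. Other exons of the gene went the other way. Exons 5, 9 and 10, with 45.9, 22.7 and 24.6 matches per kb, were listed in all 12 kidneys, and exon 13, with 0 matches, in none. A match describes the sequence only and does not mark a methylated site.

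Several recurrent loci had a high content of the purines adenine and guanine, as the printed sequence of Zc3h13 exon 12 shows with its stretches of alternating and repeated purines. This feature was chosen after the sequences had been seen. Purines made up 82.0% of Zc3h13 exon 12, which places it at the 99.8th percentile of all loci and 76.1% of Zc3h13 exon 5 (99.1st percentile). The median was 61.6% over the 11 recurrent writer loci, 57.3% over the 31 writer loci, 57.4% over the loci of all genes listed in 12 kidneys and 53.9% over all loci. Among the exons of the 9 writer transcripts, 21 had more than 60% purines, and 15 of these 21 (71.4%) carried a locus against 16 of the other 73 (21.9%). Zc3h13 alone held 10 of the 21 and 8 of the 15, so this contrast mixes genes with purine content. Within Zc3h13 the shares were 80% and 44.4%. In the 1887 genes with a peak in all 12 kidneys the shares were 45.0% of 5948 exons above 60% purines and 20.3% of the other 21252, the same direction as in the writer genes. Recurrent loci of low purine content existed as well, in Cbll1 exon 6 (45.2%) and Zc3h13 exon 9 (43.2%), and Zc3h13 exon 15 had 66.3% purines without a listed peak. Whether purine content acted on the pull-down, or through RNA level or exon length, was not tested.

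**Figure D3:**
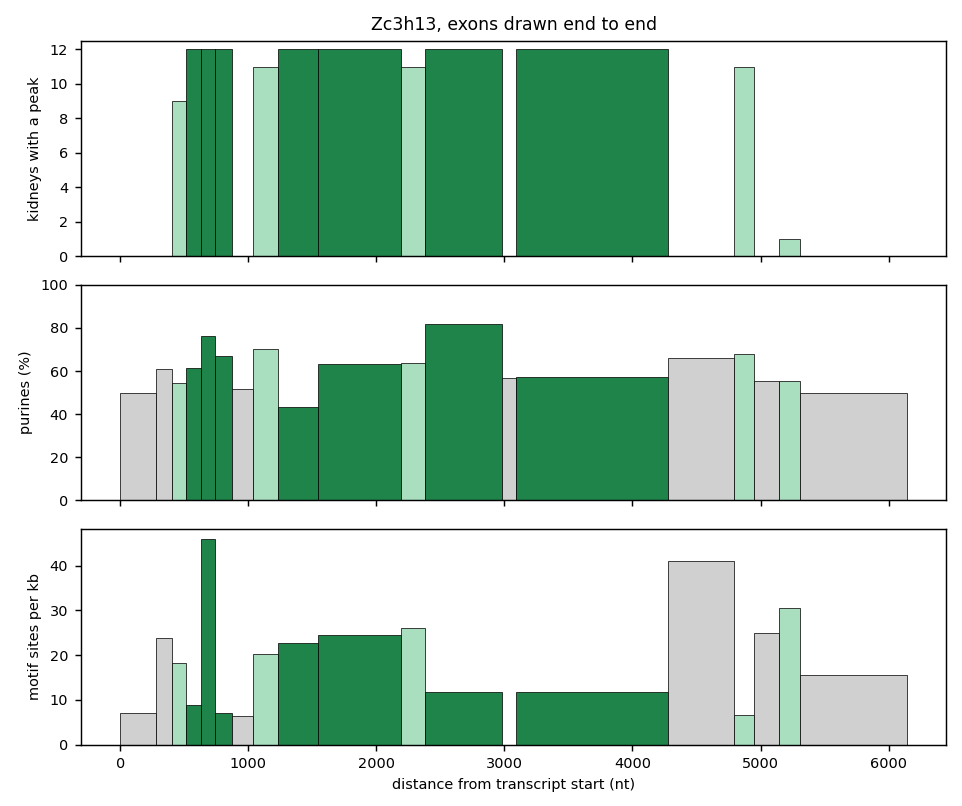
Exons of the Zc3h13 transcript drawn to scale end to end from the transcript start, in nt, with bar width as exon length. The upper panel gives the number of kidneys with a listed peak, the middle panel the share of purines in percent and the lower panel the RRACH matches per kb, and colours mark exons listed in 12 kidneys (dark green), in 1 to 11 (light green) and in none (grey). Exon 12 has the highest share of purines, 82.0%. The grey exon 15 holds 40.9 matches per kb, fewer than exon 5, which holds 45.9 and was listed in all 12 kidneys.

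**Figure D4:**
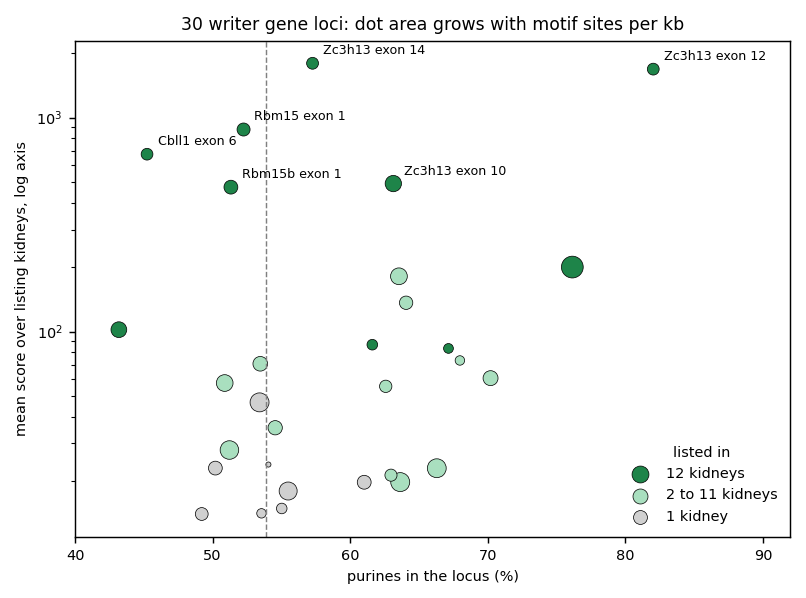
Purine content in percent and mean score over the listing kidneys (log axis) of 30 writer loci, coloured by the number of kidneys that listed them, with dot area growing with RRACH matches per kb and a dashed line at the median purine content of all loci, 53.9%. Of the strongest loci shown, Zc3h13 exon 12 lies far to the right with a small dot and Zc3h13 exon 14 lies at 57.3%.

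To ask whether injury or berberine changed which writer peaks were listed, each locus was compared by the number of kidneys with a peak. Listing in 4 of 4 kidneys against 0 of 4, which is the lone outcome with p under 0.05 (two-sided Fisher's exact test, p = 0.0286), was not met by any writer locus. In IG against control (IvC), 0 of 29 writer loci were called beside 4.08% of all loci. In TG against IG (TvI) the figures were 0 of 27 and 0.666%, and in TG against control (TvC) 0 of 29 and 4.73%. No locus of any gene passed after adjustment over all loci, with lowest Benjamini-Hochberg adjusted p-values of 0.701, 1 and 0.604. With 0.0286 as the smallest p, most of all loci would have to be called for an adjusted p under 0.05. Groups of 4 kidneys could therefore hardly give one. The lone writer locus that differed by 3 kidneys was Wtap exon 6, in 4 control and 1 IG kidneys (two-sided Fisher's exact test, p = 0.143, adjusted p = 1). Without IG kidney 3 it was in 4 of 4 control and 0 of 3 IG kidneys, which makes 1 call of 29 beside 5.50% of all loci under that omission. Writer loci were found in more IG than control kidneys in 4 cases, in fewer in 12 and in equal numbers in 13, and over all loci 26.3% had more and 46.3% fewer. In TvI the numbers were 7, 7 and 13, beside 22.6% and 43.4% of all loci with more and fewer. In TvC the writer loci divided into 5, 10 and 14, beside 18.8% and 54.9% of all loci with more and fewer.

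Writer peaks per kidney numbered 22, 20, 20 and 24 in controls (mean 21.5 ± 1.91, SD, n = 4), 21, 18, 20 and 17 in IG (19.0 ± 1.83) and 21, 18, 21 and 18 in TG (19.5 ± 1.73). The groups overlapped. As a share of the list they were 0.240 ± 0.0142% in controls, 0.257 ± 0.0256% in IG and 0.307 ± 0.0390% in TG. On this scale every TG kidney (0.267 to 0.356%) was above every control kidney (0.223 to 0.253%), and IG overlapped both. With all lists shortened to their 5901 highest-scoring peaks, the difference of IG minus control in writer peaks per kidney changed from -2.5 to 0.75, that of TG minus IG from 0.5 to 2 and that of TG minus control from -2 to 2.75.

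For loci listed in all 8 kidneys of a comparison, the within-list percentile of the score was compared between groups with a two-sided exact permutation test over 70 arrangements, whose smallest p, 0.0286, is reached when the groups do not overlap. Over all loci the median percentile difference was -2.06 in IvC, -1.19 in TvI and -3.81 in TvC, and all 3 signs turned with lists of equal length (0.41, 0.64 and 0.85). After Benjamini-Hochberg adjustment over all loci compared, 0 loci had an adjusted p under 0.05 in any comparison (lowest 0.122, 0.397 and 0.108), and at the unadjusted level 711, 200 and 746 loci did not overlap. Here too, most loci would have to reach the smallest p for any to pass after adjustment.

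In IvC, 1 of 12 writer loci did not overlap between groups, against a background of 23.4%. This was Zc3h13 exon 12, with a percentile of 93.2 ± 1.96 in controls and 97.7 ± 0.602 in IG (SD, n = 4), higher in all 4 IG kidneys (difference 4.46, exact permutation p = 0.0286, adjusted p = 0.122). On the log2 scale of the score itself, 3 of 12 did not overlap, against 22.0% of all loci. They were Zc3h13 exon 12 (difference 1.52), Virma exon 7 (0.87) and Zc3h13 exon 14 (0.81), all higher in IG, while the median over all loci was -0.14. These 3 are the loci with the highest scores of the writer genes. The share of writer loci without overlap was thus near or below that of all loci on both scales.

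In TvI, 1 of 12 writer loci did not overlap, against 7.20% of all loci. This was Zc3h13 exon 5, at a percentile of 60.6 ± 10.4 in IG and 78.9 ± 5.24 in TG (difference 18.3, exact permutation p = 0.0286, adjusted p = 0.397). On the log2 scale 2 of 12 did not overlap, against 7.49%, Zc3h13 exon 5 (difference 1.25) and Rbm15 exon 1 (-1.88). The percentile of Rbm15 was 92.7 ± 5.01 in IG and 79.2 ± 7.35 in TG, with overlap (difference -13.5, exact permutation p = 0.0571). Zc3h13 exon 10 differed by -24.03 (exact permutation p = 0.0571), and by -6.20 without TG kidney 1.

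In TvC, 1 of 12 writer loci did not overlap, against 26.5% of all loci. This was Rbm15 exon 1, at 95.3 ± 1.54 in controls and 79.2 ± 7.35 in TG (difference -16.1, exact permutation p = 0.0286, adjusted p = 0.108). On the log2 scale 2 of 12 did not overlap, against 24.8%, Rbm15 exon 1 (-2.04) and Zc3h13 exon 12 (1.03). The percentile of the adaptor Rbm15b differed by -17.9, with overlap (exact permutation p = 0.0857). TvC and IvC share the 4 control kidneys, and TvI and IvC share the 4 IG kidneys, so the comparisons are not independent.

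The number of writer loci without overlap in TvC depended on list length. With every list shortened to its 5901 highest-scoring peaks before ranking, 6 of 10 writer loci did not overlap in TvC, against 24.2% of all loci. Zc3h13 exons 4, 5, 12, 14 and 16 were higher in TG and Rbm15 exon 1 was lower. The Zc3h13 exons are parts of the same mRNA, so these loci are not independent and come from 2 genes. Exon 4 of Zc3h13 was then at a mean percentile of 19.1 in controls and 58.8 in TG, and exon 16 at 24.95 and 51.8. In the lists of equal length 2 of 10 writer loci did not overlap in IvC, against 22.9%, and these were Zc3h13 exon 12 and Virma exon 7, both higher in IG. In TvI it was 1 of 11, against 7.13%. The direction over all loci depended on the same choice. Among loci without overlap, 252 were higher and 459 lower in IvC with full lists, whereas 285 of 517 were higher with equal lists. In TvI 77 were higher and 123 lower with full lists, whereas 120 of 173 were higher with equal lists. In TvC 189 were higher and 557 lower with full lists, whereas 327 of 553 were higher with equal lists. The directions of Zc3h13 exons 5 and 12 and of Rbm15 exon 1 in the comparisons named above were the same in both.

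Of 19 other genes of the m6A pathway, 11 were listed in any kidney and 2 in all 12, with 19 loci. Alkbh5, an eraser of m6A, had its locus (chr11:60547688-60547768) in all 4 control kidneys, where it scored 14.5 to 64.3, and in 0 IG and 0 TG kidneys. A locus of the reader Ythdf1 (chr2:180910687-180912207) was likewise listed in 4 control kidneys, at scores of 72.6 to 361, but in none of the other 8. At Ythdf2, the reader that speeds decay of bound mRNA, the mean percentile was 97.0 in controls, 90.9 in IG and 87.0 in TG, without overlap in IvC and TvC. At the nuclear reader Ythdc1 (chr5:86816907-86817333) it was 96.06, 99.18 and 99.04, again without overlap in IvC and TvC and in the opposite direction. The median score of Ythdc1 was 3100 in IG and in TG, which was also its highest score, so scores were tied there. These were 2 of 6 pathway loci compared in IvC and in TvC, beside 23.4% and 26.5% of all loci, and the Alkbh5 and Ythdf1 loci were the 2 called by listing in both, beside 4.08% and 4.73%. None of the 5 pathway loci compared was without overlap in TvI, beside 7.20%, and at Ythdc1 the tied scores could hardly show a difference. Mat2a, the mRNA target of METTL16, had no listed peak.

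Gene lists for the cell types of the organ were read in the same way, as listing of peaks and not as expression. Of 17 kidney markers, 10 were listed in any kidney and 0 in all 12, and the tubule markers Lrp2, Slc34a1, Umod and Aqp2 were in none, so the lists hold too little to check the label of the tissue. In control, IG and TG, Atp6v1b1 of intercalated cells was listed in 0, 4 and 4 kidneys, Slc12a1 of the thick limb in 1, 4 and 0, and Pax2 in 2, 2 and 0. Podxl, of podocytes, was listed in 4, 2 and 4 kidneys and Nphs1, of the same cells, in 1, 4 and 2. Cubn, Slc22a6 and Aqp3 were each listed in 1 TG kidney. These counts take all loci of a gene together. Of the 19 loci of the 17 kidney markers, 1 was called by listing in each comparison. The shares of all loci called were 4.08% in IvC, 0.666% in TvI and 4.73% in TvC. Of 5 leukocyte markers 2 were listed, Itgam in 0, 4 and 4 kidneys and Ptprc in 1, 0 and 0. The Itgam count covers 2 loci. By locus, 0 of the 3 leukocyte loci were called by listing in IvC, 0 in TvI and 1 in TvC. The shares of all loci called were again 4.08%, 0.666% and 4.73%. Of 5 markers of endothelium and fibroblasts 3 were listed, each in all 12 kidneys, and 1 of their 3 loci compared was lower without overlap in IvC and 2 in TvC, where 23.4% and 26.5% of all loci were without overlap, in either direction. The median scores in control, IG and TG were 592, 252 and 108 for Pecam1, 2018, 793 and 829 for Cdh5, and 1802, 2759 and 1354 for Pdgfrb. Of 9 markers of liver, muscle, fat and adrenal gland 3 were listed (Apob, Adipoq and Plin1). The part of these differences in the writer gene results was not tested.

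Because Mettl3 had no listed peak, Zc3h13, the member with the most peaks among those listed in every kidney, was used to find genes of like pattern. By the mean absolute difference of the percentile of the highest peak over 12 kidneys, Ap3d1 (0.694), Gigyf2 (0.817) and Camsap2 (0.838) were nearest among 7773 genes. The highest peak of Zc3h13 had percentiles from 94.2 to 98.4, a narrow range near the top of each list.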

How the data were processed

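Peaks of m6A were read from 1 list per kidney, with 4 control, 4 IG and 4 TG kidneys grouped by their labels. The authors trimmed reads with cutadapt 1.9.3, used HISAT2 2.0.4 for alignment to mm10 (GRCm38) and MACS for peaks, and retained those over mRNA exons. The deposited score of a peak is -10 times log10 of its p-value. The MACS version, threshold and control are not given in the sources used here. The 12 input libraries were not analysed here. The lists hold no counts, so depth is unknown and precision rests on 4 kidneys per group.

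The 91013 peaks were joined into loci when they overlapped by at least 1 bp on the same strand, and loci were assigned to genes by exon overlap with GENCODE M21. The locus score in a kidney was its highest peak. Listing was compared with two-sided Fisher's exact tests, and percentiles with two-sided exact permutation tests (70 arrangements), each adjusted by the Benjamini-Hochberg method over all loci. The labels do not say that kidneys came from separate cages or batches, and p-values measure the spread between these kidneys. No pair of lists shared more than 71 identical entries. The permutation test was tested on simulated data. Sequences were read from GRCm38.p6, and the sequence of 1 writer locus, its composition and the values of 2 kidney markers are not reported here.

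All 9 members were named, with loci given in full when listed in all 12 kidneys, differing by 3 or more kidneys, or highest in their gene. The members and gene lists were chosen with earlier results of these data known. Alternatives were equal list lengths, scores at or above the median of 71.3, joining within 100 bp, joining of both strands, peak midpoints in exons, strand ignored, log2 scores, a block for the replicate number, and omission of each kidney. Python 3.11.15, numpy 2.4.6, scipy 1.17.1 and pysam 0.24.0 were used.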

Additional observations from a re-analysis of the deposited data

Results flagged for a closer look

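In groups of 4 kidneys, the lowest or highest percentile of a writer locus, and likewise the number of writer peaks, was set against the range of its group by Dixon's test. Of 47 groups tested, 44 of percentiles and 3 of peak numbers, 2 had a kidney far from the others, and chance gives about 1 in 20. At Zc3h13 exon 4, IG kidney 3 had a percentile of 32.6, and the other 3 IG kidneys lay between 54.2 and 56.1. At Zc3h13 exon 10, TG kidney 1 had a percentile of 12.9, and the other 3 TG kidneys lay between 81.3 and 87.7. In TG kidney 1 the peak of exon 10 had a score of 19.3 and exon 11 had no listed peak, whereas exons 12 and 14 of the same transcript had scores of 1724 and 2103.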

How the results depend on the processing

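With scores under 71.3, the median, left out, 19 writer loci remained of 31, 5 of them in all 12 kidneys against 11, and 1 of 18 writer loci, Wtap exon 5, was called by listing in TvC, beside 5.04% of all loci. With equal list lengths the difference in writer peaks per kidney was 0.75 in IvC and 2.75 in TvC, against -2.5 and -2. In TvI it was 0.5, with 2 for equal lists and -0.25 without scores under the median. Leaving out 1 kidney gave -3.17 to -1.67 in IvC, -0.167 to 1.17 in TvI and -2.5 to -1.17 in TvC. With equal list lengths the writer loci without overlap in percentile, in TvC mostly exons of Zc3h13, numbered 2 in IvC and 6 in TvC, each of 10 and beside 22.9% and 24.2% of all loci, against 1 each of 12. On the log2 scale of the score these numbers were 3 in IvC, 2 in TvI and 2 in TvC, each of 12, beside 22.0%, 7.49% and 24.8% of all loci. Without scores under the median the number in TvI was 0 of 5, beside 6.89% of all loci. With the replicate number as a block, the writer loci whose 4 pairs all differed in the same direction numbered 5 in IvC, 2 in TvI and 5 in TvC (exact sign-flip test, smallest p 0.125), each of 12, beside 37.1%, 20.2% and 41.5% of all loci. None was called by listing. Kidneys of the same number did not deviate together (correlations from -0.0191 to 0.0858 over 2417 loci), so the numbers were not used as pairs.

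Leaving out each kidney in turn gave 0 to 1 of 27 to 29 writer loci called by listing in IvC, beside 5.01 to 5.50% of all loci, and 1 to 3 of 12 to 14 writer loci without overlap in IvC, in TvI and in TvC, beside 27.4 to 28.8%, 9.997 to 12.6% and 30.2 to 31.8% of all loci under the same omissions. The difference ranged from 3.79 to 5.30 for Zc3h13 exon 12 in IvC, from 13.98 to 21.9 for Zc3h13 exon 5 in TvI and from -18.5 to -12.9 for Rbm15 exon 1 in TvC, and omitting a kidney from groups without overlap cannot change its sign. With equal list lengths these differences were 7.397, 26.6 and -15.4, and without scores under the median those of Zc3h13 exon 12 and Rbm15 exon 1 were 8.68 and -33.04. Of 206 combinations of result and alternative, those given here included, 170 kept the call or stayed within 1.5 times the count or the spread between kidneys, 33 moved further, and in 3, the differences of these loci under the block, p was 0.125, the smallest possible. Some of the 170 could not change, since groups without overlap stay so after an omission. Joining within 100 bp, joining of both strands, midpoints and strand ignored left the writer values unchanged. No depth was given, so the limit of detection of a writer peak is unknown.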
